A study of Homo sapiens with 18 samples.

Results

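Transcript levels of 10 genes of WNT signalling were followed in 18 RNA sequencing libraries from the human pancreatic cancer cell lines PANC1, COLO357 and SUIT2. They are the DNA-binding factors TCF7, TCF7L1, TCF7L2 and LEF1, the coactivator CTNNB1 (beta-catenin), the destruction complex components APC, AXIN1, AXIN2 and AMER1, and the receptor ubiquitin ligase RNF43. They were taken by name, out of 63677 gene identifiers in each library's table, and each matched 1 identifier. TCF7 and AMER1 were selected on their measured differences with KMT2D siRNA, so their values under any siRNA comparison are given below as a description, without a test. The other 8 were listed for their place in the pathway.

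Each line gave 6 libraries. One came from cells with a control siRNA, 2 from cells with different KMT2D siRNAs (siRNA1 and siRNA2) and 3 from cells with different KMT2C siRNAs (siRNA1 to siRNA3), which gave 3 control, 6 KMT2D and 9 KMT2C libraries. KMT2C and KMT2D are enhancer-bound methyltransferases of histone H3, and a small interfering RNA (siRNA) lowers the mRNA that it matches. RNA was taken after 48 h of transfection, and ribosomal RNA was depleted before sequencing of 100 nt paired ends. All groups carried an siRNA, no group was left without transfection, and a line has 1 control library only. The labels do not state separate cultures, so p-values reflect only how far these libraries spread, across different siRNAs, and part of that spread may be technical.

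In the canonical WNT pathway, a complex built on AXIN and APC binds beta-catenin and marks it for degradation. AMER1 binds APC and beta-catenin at the membrane and is a tumour suppressor lost in Wilms tumour. When a WNT ligand engages its Frizzled receptor, the complex is held back, and beta-catenin enters the nucleus and works with TCF7, TCF7L1, TCF7L2 or LEF1 on target genes. AXIN2 and RNF43 are themselves common targets that feed back on the pathway, RNF43 by removing Frizzled receptors from the cell surface. RNF43 is often mutated in mucinous pancreatic tumours.

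The promoters of TCF7 and AMER1 are shown because both genes were chosen by their values with KMT2D siRNA, and 1 of TCF7L2 because it holds the other match to a TCF motif. The sequences are RefSeq's, on GRCh38.p14, each from 250 bases before to 50 bases after an annotated start, 5′ to 3′ on the strand of the gene. Capitals mark a match, on either strand, to the core bound by TCF and LEF factors, CTTTG and then 2 bases that are each A or T.
TCF7, first start, chr5:134115363-134115662, plus strand: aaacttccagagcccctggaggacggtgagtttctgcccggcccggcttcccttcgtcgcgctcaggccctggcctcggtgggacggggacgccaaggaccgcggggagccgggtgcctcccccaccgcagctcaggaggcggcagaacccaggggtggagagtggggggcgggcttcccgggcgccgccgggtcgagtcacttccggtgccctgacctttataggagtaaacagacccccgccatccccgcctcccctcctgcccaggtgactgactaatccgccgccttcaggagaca
TCF7, second start, chr5:134123368-134123667, plus strand: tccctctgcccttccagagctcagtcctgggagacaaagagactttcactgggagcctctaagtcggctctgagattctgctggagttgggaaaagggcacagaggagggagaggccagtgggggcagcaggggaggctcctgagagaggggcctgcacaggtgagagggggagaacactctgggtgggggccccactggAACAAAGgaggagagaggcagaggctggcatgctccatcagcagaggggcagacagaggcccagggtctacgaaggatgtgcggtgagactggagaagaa
AMER1, chrX:64205659-64205958, minus strand: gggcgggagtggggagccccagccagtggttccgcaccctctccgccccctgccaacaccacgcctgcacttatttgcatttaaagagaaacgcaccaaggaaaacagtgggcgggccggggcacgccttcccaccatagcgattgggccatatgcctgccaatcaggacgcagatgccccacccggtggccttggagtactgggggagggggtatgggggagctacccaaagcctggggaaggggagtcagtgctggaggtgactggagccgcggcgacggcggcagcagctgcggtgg
TCF7L2, second start, chr10:113126383-113126682, plus strand: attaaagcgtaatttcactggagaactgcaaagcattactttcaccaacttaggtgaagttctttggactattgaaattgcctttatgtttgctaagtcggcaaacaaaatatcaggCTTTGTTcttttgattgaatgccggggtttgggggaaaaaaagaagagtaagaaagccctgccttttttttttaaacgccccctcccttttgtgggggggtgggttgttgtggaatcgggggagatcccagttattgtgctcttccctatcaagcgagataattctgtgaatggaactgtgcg
The second TCF7 start held 1 match, CTTTGTT on the minus strand from base 201 of the window. The TCF7L2 window held 1 match, CTTTGTT on the plus strand from base 118. The first TCF7 start and the AMER1 start held none. Among 14 promoters of 9 of the 10 genes in the table, 2 held a match, and 4829 of all 35116 promoters listed did (13.8%). No entry was matched for AXIN2. These are matches of letters only and were not measured as binding sites.

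Depth was 14205640 to 32115894 gene counts per library. Levels are given as CPM, counts scaled to library sizes after TMM normalization (trimmed mean of M values, factors 0.946 to 1.06), and where genes are compared with each other as CPM per kb of annotated exon. Read pairs outside any annotated feature were 8.90% to 30.4% in the KMT2C libraries, 8.65% to 13.3% in the KMT2D libraries and 7.49% to 16.5% in the controls. They passed 20% in 3 libraries, SUIT2 KMT2C siRNA2 and siRNA3 and COLO357 KMT2C siRNA3. KMT2D mRNA lay at 34.8% to 84.7% of the same line's control with KMT2D siRNA, and KMT2C mRNA at 43.2% to 116% with KMT2C siRNA. The library labelled PANC1 KMT2C siRNA2 was the one at 116%, so that its KMT2C level goes against its label, and it is named by that label throughout. It also had the highest KMT2D level, at 372% of control, and whether labels were exchanged was not tested. KMT2D mRNA was above control in 8 of 9 KMT2C libraries (99.1% to 372%, mean 168%), and KMT2C mRNA in 4 of 6 KMT2D libraries (92.7% to 274%). A difference between KMT2C and KMT2D siRNA therefore sets libraries with KMT2D mostly above control against libraries with KMT2D below it. The epithelial markers KRT8, KRT18, KRT19, EPCAM and CDH1 were detected in every library, with a summed level of 810 to 1200 CPM in PANC1, 3570 to 4660 CPM in COLO357 and 2670 to 6530 CPM in SUIT2. The endothelial marker PECAM1 was at 0 in every library, and the leukocyte marker PTPRC did not pass 0.0875 CPM. Of the fibroblast markers DCN did not pass 0.06 CPM, while COL1A1 reached 179 CPM. The summed level of 5 fibroblast markers was 51.6 to 180 CPM in PANC1, 22.3 to 150 CPM in COLO357 and 1.19 to 5.26 CPM in SUIT2. That of 5 leukocyte markers was 3.13 to 9.63 CPM in SUIT2, mostly LYZ, and at most 0.3 CPM in the other lines, and that of 4 endothelial markers was 4.73 to 28.2 CPM in COLO357, mostly CDH5, and at most 0.194 CPM elsewhere. These sums differ between the lines, and their part in the line differences below was not tested.

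Markers were also compared between the siRNA targets, and only CDH5 was called. All 5 epithelial markers had a log2 difference below 0 with KMT2C siRNA (-0.70 to -0.24), of which 0 were called and 4 had an unadjusted p under 0.05. Their sum in SUIT2 was 6530 CPM in the control, 5810 to 6380 CPM in the KMT2D libraries and 2670 to 4610 CPM in the KMT2C libraries. In PANC1 the sum was 1140 CPM in the control, 829 to 1120 CPM with KMT2D siRNA and 810 to 1200 CPM with KMT2C siRNA. In COLO357 the sum was 4630 CPM in the control, 3810 to 4660 CPM with KMT2D siRNA and 3570 to 4000 CPM with KMT2C siRNA. CDH5, an adhesion gene of endothelium, was higher with KMT2C than with KMT2D siRNA (log2 difference 1.94, SE 0.403, adjusted p = 0.00977), at 13.4 to 27.9 CPM against 4.64 and 4.68 CPM in COLO357, where the control was at 5.84 CPM. Of all genes tested, 5.17% were called between KMT2C and KMT2D siRNA. The leukocyte sum in SUIT2 was 9.63 CPM in the control, 8.98 and 9.03 CPM in the KMT2D libraries and 3.13 to 6.52 CPM in the KMT2C libraries. The part of these markers in the siRNA values below was not tested.

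CTNNB1 (ENSG00000168036) was the most abundant of the 10 genes per kb of exon in each line, at 36.8 ± 3.02 CPM per kb in PANC1, 43.1 ± 6.30 in COLO357 and 37.8 ± 8.44 in SUIT2 (SD, n = 6 each). APC (ENSG00000134982), the scaffold that holds beta-catenin in the destruction complex, followed with 10.5 ± 1.15, 9.46 ± 0.723 and 13.3 ± 1.38 CPM per kb. AXIN1 (ENSG00000103126), the other scaffold, came next in PANC1 and COLO357, with 7.76 ± 1.34 and 8.22 ± 1.33 CPM per kb. In SUIT2 it was at 5.80 ± 1.65 CPM per kb, within the spread of TCF7L2 at 6.92 ± 2.89 and of RNF43 at 4.70 ± 1.15. The induced scaffold AXIN2 (ENSG00000168646) was far below AXIN1, at 0.369 ± 0.175, 0.435 ± 0.134 and 0.480 ± 0.108 CPM per kb. AMER1 (ENSG00000184675) lay between them at 2.19 ± 0.699, 1.18 ± 0.353 and 1.98 ± 1.11 CPM per kb. The scaffolds and beta-catenin were thus expressed in all 3 lines. Of the 10 genes, RNF43, LEF1, TCF7L1 and TCF7L2 had the largest log2 differences between lines.

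**Figure D1:**
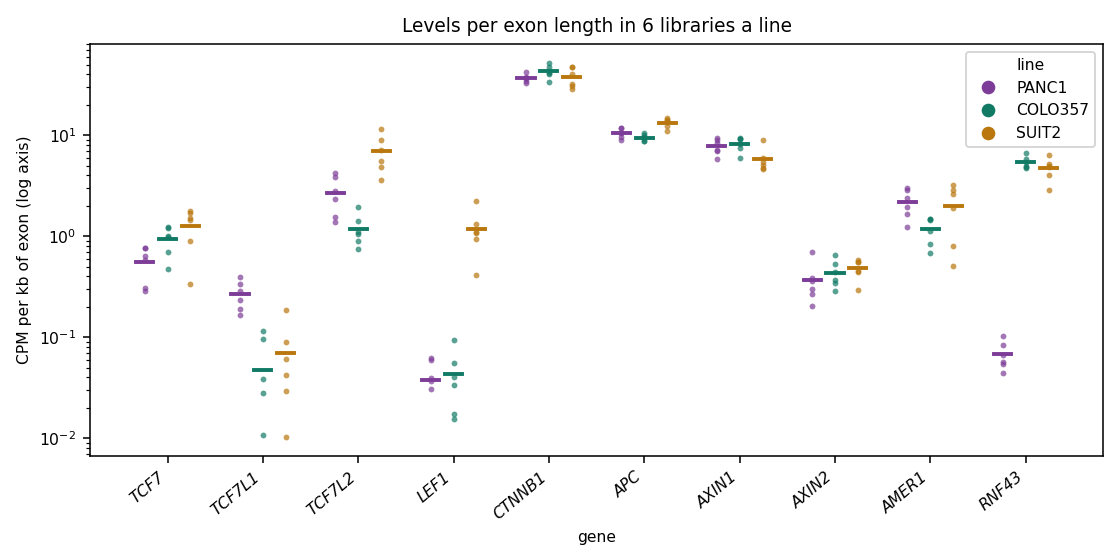
CPM per kb of annotated exon (log axis) for each of the 10 genes, with 6 libraries of each line as points and their mean as a bar. The LEF1 value of PANC1 KMT2D siRNA2 and the TCF7L1 value of COLO357 KMT2D siRNA2 were 0 and have no point, and RNF43 in PANC1 and LEF1 in PANC1 and COLO357 lie under 0.11 CPM per kb.

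RNF43 (ENSG00000108375) had the largest difference between lines of the 10 genes. Its level was 0.333 to 0.766 CPM in PANC1 (median 0.464), 35.2 to 49.5 CPM in COLO357 (median 38.9) and 21.7 to 47.3 CPM in SUIT2 (median 37.0). No PANC1 library, with 6 to 18 counts each, came near a library of the other lines, and COLO357 and SUIT2 overlapped. RNF43 was 78.0-fold higher in COLO357 than in PANC1 (log2 difference 6.29, SE 0.234, adjusted p = 3.13e-16) and 67.9-fold higher in SUIT2 (log2 difference 6.09, SE 0.234, adjusted p = 5.59e-16). Between SUIT2 and COLO357 the log2 difference of -0.20 (95% interval -0.56 to 0.16, adjusted p = 0.33) did not pass the test. On GENCODE v29, 73.9% of the exon bases of RNF43 are shared with AC004687.2, SUPT4H1 or TSPOAP1-AS1, and whether the counting used strand is not stated, so its counts are uncertain. In RNA from a whole culture, fewer cells with a transcript and less of it per cell cannot be told apart, here and below.

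LEF1 (ENSG00000138795), the lymphoid enhancer factor of the TCF family, was expressed mainly in SUIT2. It stood at 5.91 CPM with control siRNA, 5.05 and 2.20 CPM with the KMT2D siRNAs and 7.04, 11.9 and 5.77 CPM with the KMT2C siRNAs in SUIT2. In PANC1 it ranged from 0 to 0.333 CPM and in COLO357 from 0.0834 to 0.503 CPM, with at most 9 counts in any library of those lines. Every SUIT2 library was above every library of the other lines. The log2 difference was 4.90 (SE 0.425, adjusted p = 1.22e-09) from PANC1 and 4.70 (SE 0.424, adjusted p = 2.81e-09) from COLO357. Between COLO357 and PANC1 it was 0.20 (SE 0.551, adjusted p = 0.767), at counts too low to show a difference of that size.

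TCF7L2 (ENSG00000148737), the TCF factor best known from the gut epithelium, was present in all 3 lines at different levels. Levels were 9.35 to 28.4 CPM in PANC1 (median 17.2), 5.07 to 13.0 CPM in COLO357 (median 7.26) and 24.3 to 76.9 CPM in SUIT2 (median 42.8). SUIT2 and COLO357 did not overlap, and PANC1 overlapped with both. TCF7L2 was 2.28-fold lower in COLO357 than in PANC1 (log2 difference -1.19, SE 0.262, adjusted p = 0.000438), 2.54-fold higher in SUIT2 than in PANC1 (1.35, SE 0.257, adjusted p = 0.000124) and 5.79-fold higher in SUIT2 than in COLO357 (2.53, SE 0.269, adjusted p = 6.27e-08).

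TCF7L1 (ENSG00000152284), often a repressor of target genes, was highest in PANC1. It was at 0.740 to 1.72 CPM in PANC1, 0 to 0.503 CPM in COLO357 and 0.0454 to 0.816 CPM in SUIT2. All PANC1 libraries were above all COLO357 libraries, and 1 SUIT2 library, KMT2C siRNA3, reached into the PANC1 range. The log2 difference from PANC1 was -2.63 in COLO357 (SE 0.512, adjusted p = 0.000103) and -2.04 in SUIT2 (SE 0.484, adjusted p = 0.000969). COLO357 and SUIT2 libraries held 0 to 13 counts of this gene, and their log2 difference of 0.59 (SE 0.602, adjusted p = 0.412) was not called.

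TCF7 (ENSG00000081059), a factor known from T cells, was lowest in PANC1. It ranged from 2.86 to 7.63 CPM there (median 6.08), from 4.81 to 12.4 CPM in COLO357 (median 10.03) and from 3.39 to 17.7 CPM in SUIT2 (median 14.8). The ranges of all 3 lines overlapped. The lone control libraries, at 3.06 CPM in PANC1, 10.1 CPM in COLO357 and 17.7 CPM in SUIT2, were further apart than these medians. The differences that follow are over all libraries of a line, most of them with KMT2C or KMT2D siRNA. The log2 difference from PANC1 was 1.14 in SUIT2 (SE 0.253, adjusted p = 0.000508) and 0.74 in COLO357 (SE 0.25, adjusted p = 0.0126). Without the PANC1 control library the COLO357 difference had an adjusted p = 0.051. SUIT2 and COLO357 differed by 0.40 (SE 0.246, adjusted p = 0.169), which passed the test (adjusted p = 0.0317) only when SUIT2 KMT2D siRNA1 was left out.

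AMER1 was chosen by its values with KMT2D siRNA, and its line differences are over all libraries of a line, those with KMT2D siRNA included. Its log2 difference from control with KMT2D siRNA was -0.99 in PANC1, -0.97 in COLO357 and -2.28 in SUIT2. The lone control libraries were at 24.3 CPM in PANC1, 12.6 CPM in COLO357 and 27.1 CPM in SUIT2. Of the destruction complex, AMER1 was 1.87-fold lower in COLO357 than in PANC1 (log2 difference -0.90, SE 0.208, adjusted p = 0.000578) and 1.51-fold higher in SUIT2 than in COLO357 (0.60, SE 0.21, adjusted p = 0.0179). The latter call was lost without the COLO357 control (adjusted p = 0.0537), the SUIT2 control (0.0661) or SUIT2 KMT2C siRNA2 (0.0633), and without the 3 libraries with over 20% of read pairs in no feature (0.203). APC was 1.40-fold higher in SUIT2 than in COLO357 (0.48, SE 0.114, adjusted p = 0.000899), with SUIT2 at 136 to 182 CPM and COLO357 at 108 to 130 CPM and no overlap. Its difference between SUIT2 and PANC1 was 0.33 (SE 0.114, adjusted p = 0.0166), and it was not called without those 3 libraries (adjusted p = 0.0593) or without a filter on low counts (0.12). AXIN1 was 1.43-fold lower in SUIT2 than in COLO357 (-0.52, SE 0.159, adjusted p = 0.00772, and 0.104 without the 3 libraries). Its difference of -0.42 between SUIT2 and PANC1 (SE 0.158, adjusted p = 0.0262) was lost when any 1 of 7 libraries was left out (adjusted p 0.0506 to 0.0641: the PANC1 control, PANC1 KMT2D siRNA1, the library labelled PANC1 KMT2C siRNA2, SUIT2 KMT2D siRNA1 and SUIT2 KMT2C siRNA1, siRNA2 and siRNA3) and without the 3 libraries (0.151).

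CTNNB1 and AXIN2 were not called between any of the lines. The largest CTNNB1 difference was 0.22 between COLO357 and PANC1 (95% interval -0.03 to 0.46, adjusted p = 0.109), which DESeq2 called (adjusted p = 0.0262), as did edgeR with relative log expression factors (0.0372) and without the 3 libraries (0.0317). AXIN2 differed by 0.39 between SUIT2 and PANC1 (95% interval -0.18 to 0.96, adjusted p = 0.226), and was called without the library labelled PANC1 KMT2C siRNA2 (adjusted p = 0.0417). On GENCODE v29, 25.2% of AXIN2 exon bases are shared with AC004805.1.

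In counts, 5 of the 10 genes were called between COLO357 and PANC1 (2 higher, 3 lower), against 66.8% of all 21028 genes tested (34.7% higher, 32.1% lower). Between SUIT2 and PANC1 7 were called (5 higher, 2 lower), against 59.3% of all genes (29.5% higher, 29.8% lower). Between SUIT2 and COLO357 5 were called (4 higher, 1 lower), against 59.7% (28.8% higher, 30.9% lower). All 10 genes passed the filter on low counts. The 6 libraries of each line separated without overlap for 2 of the 10 genes between COLO357 and PANC1 (RNF43 and TCF7L1), for 2 between SUIT2 and PANC1 (LEF1 and RNF43) and for 3 between SUIT2 and COLO357 (TCF7L2, LEF1 and APC). The same held for 44.9%, 33% and 35.1% of all genes tested. The called shares of the 10 genes were near those of all genes.

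**Figure D2:**
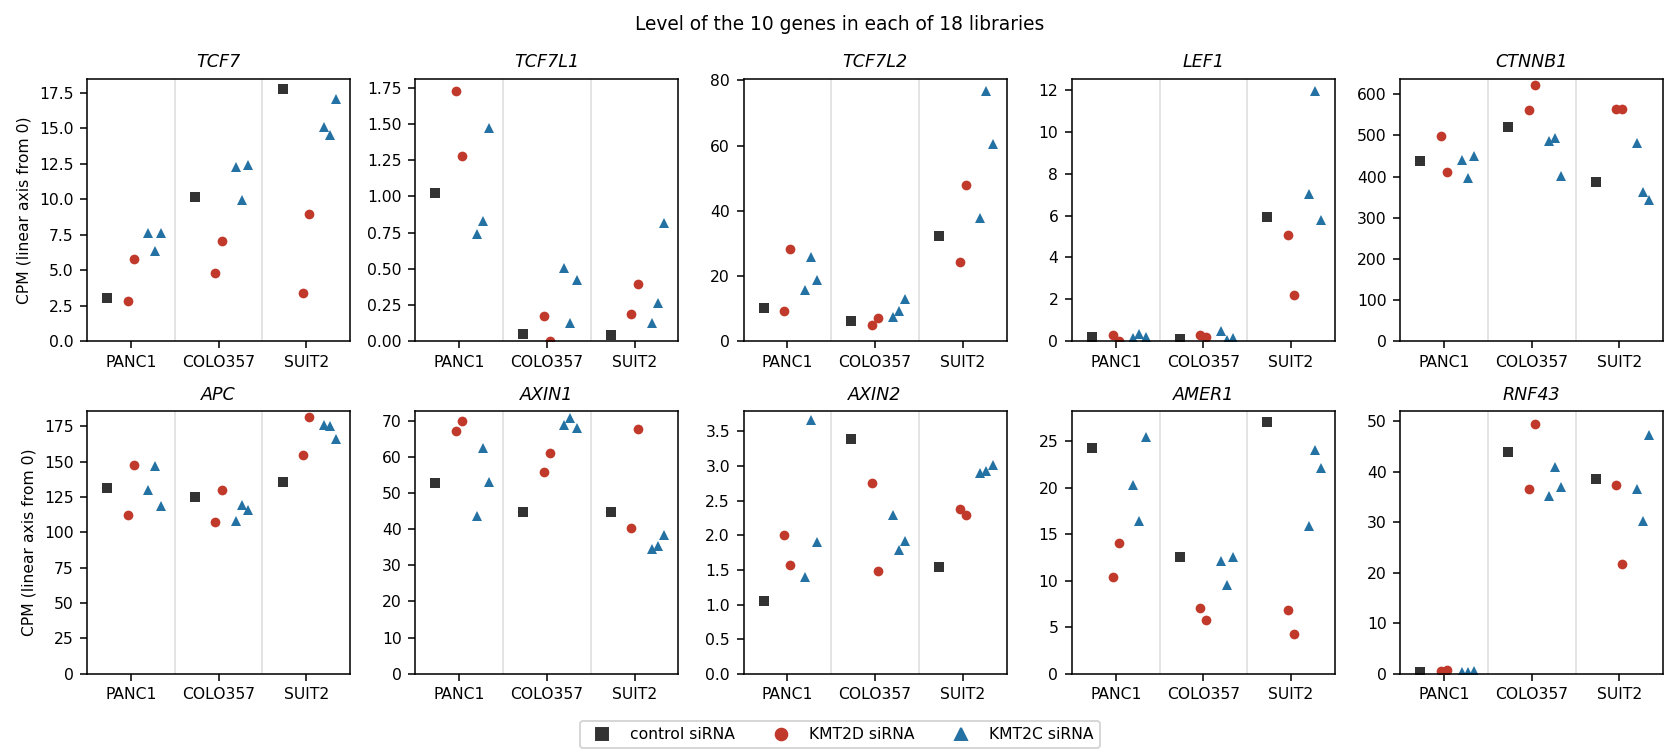
CPM (linear axis from 0) of each of the 10 genes in 18 libraries, by line, with control siRNA as squares, KMT2D siRNA as circles and KMT2C siRNA as triangles. RNF43 is under 1 CPM in every PANC1 library and LEF1 is above 2 CPM only in SUIT2.

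AMER1 is the gene whose level with KMT2D siRNA chose it. In PANC1 it was at 24.3 CPM with control siRNA, 10.4 and 14.1 CPM with KMT2D siRNA1 and siRNA2, and 20.3, 16.5 and 25.5 CPM with KMT2C siRNA1, siRNA2 and siRNA3. In COLO357 it was at 12.6 CPM with control siRNA, 7.05 and 5.77 CPM with the KMT2D siRNAs, and 12.1, 9.51 and 12.5 CPM with the KMT2C siRNAs. In SUIT2 it was at 27.1 CPM with control siRNA, 6.83 and 4.31 CPM with the KMT2D siRNAs, and 15.9, 24.0 and 22.2 CPM with the KMT2C siRNAs. All 6 KMT2D libraries were below their control and below every KMT2C library of their line. AMER1 stood at 40.7% ± 16.9 of control with KMT2D siRNA (SD, n = 6) and at 84.1% ± 15.2 with KMT2C siRNA (SD, n = 9). The log2 difference from control was -1.39 with KMT2D siRNA (SE 0.246), with line values of -0.99 in PANC1, -0.97 in COLO357 and -2.28 in SUIT2. With KMT2C siRNA it was -0.27 (SE 0.232), and 1 of 9 libraries, PANC1 KMT2C siRNA3, was above control.

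TCF7, the other gene chosen for its KMT2D values, was less even across lines. PANC1 cells had 3.06 CPM with control siRNA, 2.86 and 5.79 CPM with the KMT2D siRNAs, and 7.60, 6.37 and 7.63 CPM with the KMT2C siRNAs. COLO357 cells had 10.1 CPM with control siRNA, 4.81 and 7.09 CPM with the KMT2D siRNAs, and 12.3, 9.93 and 12.4 CPM with the KMT2C siRNAs. SUIT2 cells had 17.7 CPM with control siRNA, 3.39 and 8.98 CPM with the KMT2D siRNAs, and 15.1, 14.5 and 17.1 CPM with the KMT2C siRNAs. The KMT2D libraries were below control in COLO357 and SUIT2, while in PANC1 1 was just below and 1 was above it. With KMT2C siRNA every PANC1 library was above control and every SUIT2 library below it. The log2 difference from control with KMT2D siRNA was -0.70 (SE 0.3) over the lines, and 0.50 in PANC1, -0.77 in COLO357 and -1.52 in SUIT2. With the PANC1 control left out it was -1.08 over the lines, and with that of SUIT2 left out -0.31. With KMT2C siRNA it was 0.29 (SE 0.288) over the lines, and 1.23 in PANC1, 0.19 in COLO357 and -0.19 in SUIT2. That value was -0.07 with the control of PANC1 left out and 0.69 with that of SUIT2 left out.

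KMT2D mRNA lay at 79.9% and 84.7% of control with the KMT2D siRNAs in PANC1, at 43.5% and 45.5% in COLO357 and at 34.8% and 65.8% in SUIT2. PANC1 thus had the least reduction of KMT2D and the TCF7 values closest to or above control, and the part of the one in the other was not tested. In AMER1 the PANC1 libraries were as far below control as those of COLO357.

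For TCF7 and AMER1 the KMT2C libraries lay above the KMT2D libraries without overlap in all 3 lines, which restates in part the KMT2D values that chose them. Separation in one direction in all 3 lines was found in 0 of the other 8 genes and in 2.99% of all genes tested. The log2 difference of KMT2C from KMT2D siRNA was 0.99 for TCF7 (SE 0.233) and 1.12 for AMER1 (SE 0.197). Without the 3 libraries with over 20% of read pairs in no feature these values were 0.97 and 0.96, and without the library labelled PANC1 KMT2C siRNA2 they were 1.00 and 1.17.

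**Figure D3:**
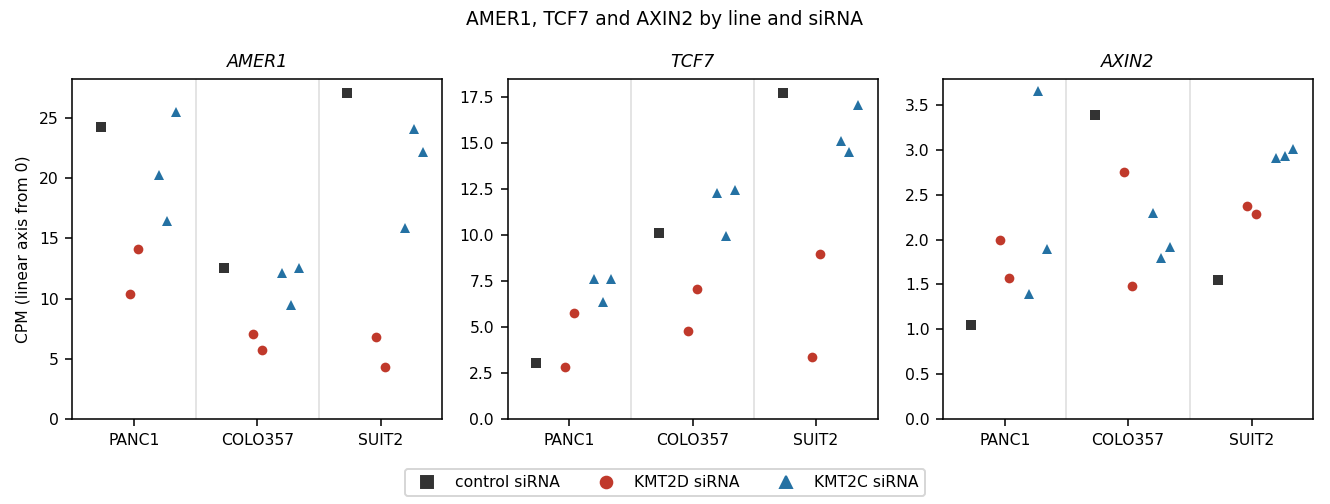
CPM (linear axis from 0) of AMER1, TCF7 and AXIN2 in 18 libraries, by line, with control siRNA as squares, KMT2D siRNA as circles and KMT2C siRNA as triangles. For AMER1 and TCF7 the circles are below the triangles in each line, and for AXIN2 the triangles are above the square in PANC1 and SUIT2 and below it in COLO357.

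None of the 8 other genes was called with KMT2D siRNA by edgeR's quasi-likelihood test (adjusted p 0.474 to 0.955), and 0 had an unadjusted p under 0.05. DESeq2 and limma-voom with the siRNA as a block also called 0 of them. Of all genes 1.2% were called (253, 0.699% higher and 0.504% lower). That count was 77 with the siRNA as a block, and it dropped to 80 when the PANC1 control was left out, to 138 for the COLO357 control and to 36 for the SUIT2 control. In 0 of the 8 did every KMT2D library lie on the same side of its line's control, which was the case for 13.4% of all genes. The median log2 difference was 0.0771 over the 10 genes and 0.0177 over all genes. The former includes TCF7 and AMER1, which were chosen on this comparison, and is a description only.

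With KMT2C siRNA 0 of the 8 were called (adjusted p 0.404 to 0.958), and 1, TCF7L2, had an unadjusted p under 0.05. DESeq2 and limma-voom with the block also called 0 of them, and edgeR without a filter on low counts called 1. Of all genes 0.281% were called (59, 0.266% higher and 0.0143% lower), a count that was 26 with the block, 37 without the 3 libraries, and 13 and 7 without the PANC1 or SUIT2 control. The comparison shares its control libraries with that of KMT2D. The median log2 difference was 0.2 over the 10 genes, TCF7 and AMER1 included, and 0.0035 over all genes.

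TCF7L2 was the one gene of the 10 above its control in every KMT2C library, as 6.99% of all genes lay on one side of control in all 9. PANC1 cells had 10.3 CPM with control siRNA, 9.35 and 28.4 CPM with KMT2D siRNA1 and siRNA2, and 15.6, 25.8 and 18.8 CPM with the KMT2C siRNAs. COLO357 cells had 6.08 CPM with control siRNA, 5.07 and 7.13 CPM with the KMT2D siRNAs, and 7.38, 9.43 and 13.0 CPM with the KMT2C siRNAs. SUIT2 cells had 32.3 CPM with control siRNA, 24.3 and 48.0 CPM with the KMT2D siRNAs, and 37.7, 76.9 and 60.6 CPM with the KMT2C siRNAs. In each line KMT2D siRNA1 gave a value below control and KMT2D siRNA2 one above it. TCF7L2 stood at 179% ± 47.8 of control with KMT2C siRNA (SD, n = 9) and at 132% ± 75.0 with KMT2D siRNA (SD, n = 6). The log2 difference with KMT2C siRNA was 0.84 (SE 0.31, 95% interval 0.19 to 1.48, adjusted p = 0.404), with line values of 0.96, 0.71 and 0.85 in PANC1, COLO357 and SUIT2. It was 0.79 (adjusted p = 0.513) without the library labelled PANC1 KMT2C siRNA2 and 0.56 (adjusted p = 0.747) without the 3 libraries with over 20% of read pairs in no feature, and over the alternatives the adjusted p ran from 0.0395, without a filter on low counts, to 0.975. Against KMT2D siRNA the difference was 0.48 (SE 0.236, adjusted p = 0.239), which was called without PANC1 KMT2D siRNA2 (adjusted p = 0.0276).

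TCF7L1 in COLO357 and SUIT2, and LEF1 in PANC1 and COLO357, gave too few counts for a fold against a single control. TCF7L1 had 1 count in the COLO357 and SUIT2 controls and 0 to 13 counts in the siRNA libraries of these lines. In PANC1 it was at 1.02 CPM with control siRNA, 1.72 and 1.28 CPM with KMT2D siRNA and 0.740, 0.831 and 1.47 CPM with KMT2C siRNA. The log2 difference over the lines was 0.77 with KMT2D siRNA (SE 0.627, 95% interval -0.53 to 2.08) and 0.99 with KMT2C siRNA (SE 0.611, 95% interval -0.28 to 2.26). Both intervals include 0 and also an increase of several fold. With the control of PANC1 left out the log2 differences were 2.37 and 2.57, and with that of SUIT2 left out 0.45 and 0.66. LEF1 with KMT2D siRNA was at -0.27 (95% interval -1.36 to 0.82). In SUIT2, where it had 50 to 179 counts, its log2 difference from control was -0.70 with KMT2D siRNA and 0.48 with KMT2C siRNA. There all 3 KMT2C libraries were above both KMT2D libraries, and over the lines the difference was 0.79 (SE 0.405, adjusted p = 0.259).

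CTNNB1 came closest to a call between the targets. In PANC1 it was at 437 CPM with control siRNA, 500 and 411 CPM with the KMT2D siRNAs, and 440, 396 and 449 CPM with the KMT2C siRNAs. In COLO357 it was at 520 CPM with control siRNA, 563 and 623 CPM with the KMT2D siRNAs, and 486, 493 and 402 CPM with the KMT2C siRNAs. In SUIT2 it was at 387 CPM with control siRNA, 565 CPM with each KMT2D siRNA, and 483, 362 and 342 CPM with the KMT2C siRNAs. KMT2C libraries were below both KMT2D libraries in COLO357 and SUIT2 and overlapped with them in PANC1. The log2 difference of KMT2C from KMT2D siRNA was -0.33 (SE 0.107, 95% interval -0.55 to -0.10, adjusted p = 0.0755). DESeq2 called it (adjusted p = 0.0228), as did edgeR without PANC1 KMT2D siRNA2 (0.0374), and without the 3 libraries with over 20% of read pairs in no feature the value was -0.20 (adjusted p = 0.35).

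Between KMT2C and KMT2D siRNA, 0 of the 8 passed edgeR's test (adjusted p 0.0755 to 0.998), 1 had an unadjusted p under 0.05 and DESeq2 called 1, both times CTNNB1. Limma-voom with the siRNA as a block called 0. Of all genes 5.17% were called (1087, 2.45% higher and 2.72% lower), a count that was 288 with the block, 342 without the 3 libraries, 672 without COLO357 KMT2D siRNA2 and 708 without SUIT2 KMT2D siRNA1. The median log2 difference was 0.219 over the 10 genes and -0.00764 over all genes. The former includes TCF7 and AMER1, whose KMT2D values chose them, and is a description only.

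APC gave small differences with both targets. It was at 112 to 148 CPM in PANC1, 108 to 130 CPM in COLO357 and 136 to 182 CPM in SUIT2, with the control inside the range of the siRNA libraries in PANC1 and COLO357. In SUIT2 the control, at 136 CPM, was below every siRNA library, at 154 to 182 CPM. The log2 difference from control was 0.06 with KMT2D siRNA (95% interval -0.23 to 0.35) and 0.06 with KMT2C siRNA (95% interval -0.21 to 0.34). AXIN1 was above control in 5 of 6 KMT2D libraries, with a log2 difference of 0.34 (SE 0.196, 95% interval -0.07 to 0.74, adjusted p = 0.505). With KMT2C siRNA AXIN1 was at 68.8, 70.8 and 68.1 CPM in COLO357, above the control at 44.8 CPM, and at 34.5, 35.4 and 38.3 CPM in SUIT2, below its control, also at 44.8 CPM. The difference of that KMT2C value between lines had an unadjusted p of 0.09 and an adjusted p of 1. RNF43 was at -0.06 with KMT2D siRNA (95% interval -0.55 to 0.42) and -0.07 with KMT2C siRNA (95% interval -0.52 to 0.38).

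AXIN2, the feedback gene often read as a measure of WNT output, lay on opposite sides of control in different lines. PANC1 cells had 1.05 CPM with control siRNA, 2.0 and 1.57 CPM with the KMT2D siRNAs, and 1.40, 3.66 and 1.90 CPM with the KMT2C siRNAs. COLO357 cells had 3.39 CPM with control siRNA, 2.75 and 1.49 CPM with the KMT2D siRNAs, and 2.29, 1.79 and 1.92 CPM with the KMT2C siRNAs. SUIT2 cells had 1.54 CPM with control siRNA, 2.38 and 2.29 CPM with the KMT2D siRNAs, and 2.90, 2.93 and 3.01 CPM with the KMT2C siRNAs. All siRNA libraries were above control in PANC1 and SUIT2 and all were below it in COLO357, each against 1 control of 32 to 72 counts. The share of all genes with such a pattern was not counted, so it is a description only. In PANC1 the highest value is that of the library labelled KMT2C siRNA2. With KMT2C siRNA the log2 values by line were 1.12 in PANC1, -0.76 in COLO357 and 0.93 in SUIT2, and the difference between lines had an unadjusted p of 0.0257 and an adjusted p of 1 in edgeR's quasi-likelihood test. With KMT2D siRNA they were 0.76, -0.68 and 0.59 (unadjusted p = 0.128, adjusted p = 1). Over the lines AXIN2 was at 0.09 with KMT2D siRNA (adjusted p = 0.955) and 0.31 with KMT2C siRNA (adjusted p = 0.825), or 0.15 without that library (adjusted p = 0.935).

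No gene of the 21028 tested (0%) was called for a difference between lines in the effect of KMT2D siRNA or of KMT2C siRNA (0%), with 475 and 469 at an unadjusted p under 0.05. DESeq2 called 4 and 3 genes, and limma-voom with the siRNA as a block 0 and 1. The lone control library of each line was assumed there to vary like the other groups.

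**Figure D4:**
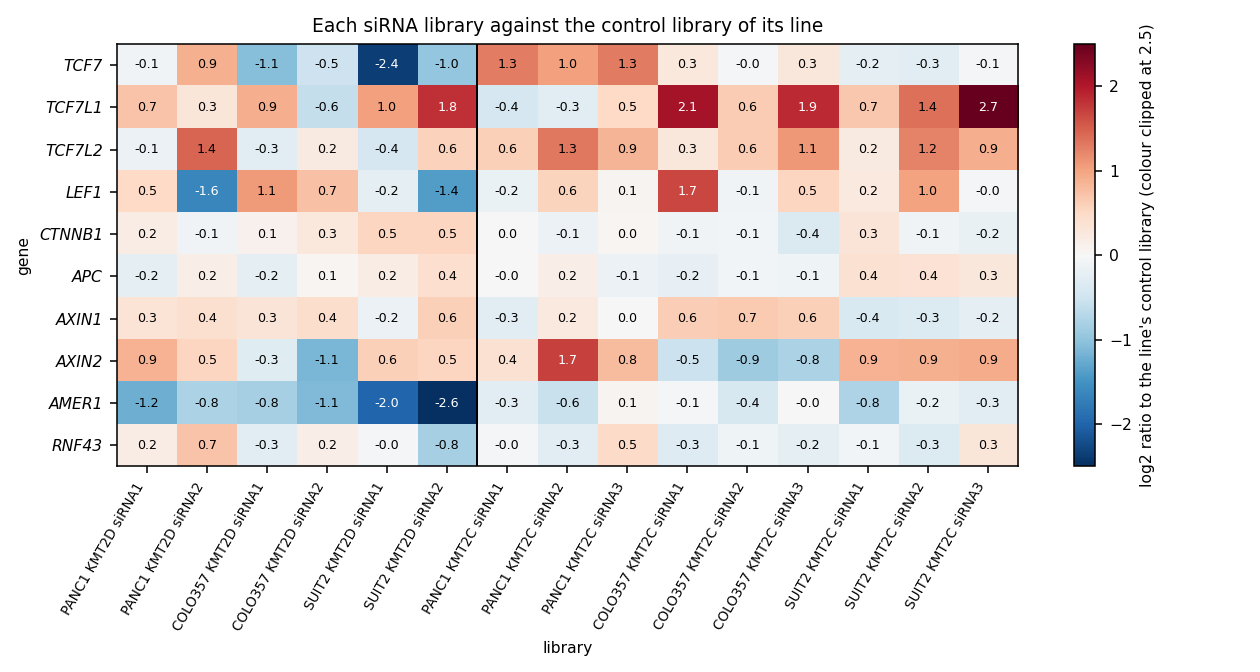
Log2 ratio of each siRNA library to the control library of its line (prior count 2), for 10 genes in rows and 15 libraries in columns, KMT2D siRNAs left of the line and KMT2C siRNAs right of it. AMER1 is below 0 in every KMT2D library, TCF7L2 is above 0 in every KMT2C library, and AXIN2 changes sign in COLO357.

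The other genes of the pathway were followed by a list of 104, of which 90 passed the filter on low counts. With KMT2D siRNA 1 of the 90 was called (1.11%, against 1.2% of all genes), with KMT2C siRNA 1 (1.11%, against 0.281%), and between KMT2C and KMT2D siRNA 4 (4.44%, against 5.17%). The median log2 difference of the 90 was 0.0963, 0.113 and -0.000323 in the order given, against 0.0177, 0.0035 and -0.00764 over all genes. Per kb, by the mean of 18 libraries, the R-spondin receptor LGR4 led its group (51.3 ± 29.1 CPM per kb, SD, n = 18) and DKK1, a secreted inhibitor of LRP receptors, the antagonists (53.4 ± 39.0), and both also led in each line. In the other 5 groups the 18-library mean was highest for WLS, which carries WNT proteins to the cell surface (11.8 ± 9.67), LRP5 (27.5 ± 9.72), CSNK1A1 (33.5 ± 8.46), CTBP2 (10.7 ± 5.21) and CCND1, the cyclin D1 gene (149 ± 100.0), but the leading gene differed between lines. The genes leading in a line are named here after their values were seen (n = 6 each). The ligand group of the list also holds WLS and PORCN, which are not ligands. In that group they were WNT5B in PANC1 (10.1 ± 4.06 CPM per kb), WNT5A in COLO357 (13.6 ± 4.34) and WLS in SUIT2 (24.5 ± 4.62). Among receptors they were LRP5 in PANC1 (34.4 ± 8.44), FZD10 in COLO357 (29.1 ± 7.47) and FZD6 in SUIT2 (33.0 ± 4.2). The cytoplasmic transducers were led by FBXW11 in PANC1 (47.6 ± 6.66), CSNK1A1 in COLO357 (39.5 ± 6.0) and TNKS2 in SUIT2 (24.9 ± 4.05). CTBP1 led the nuclear cofactors in PANC1 (10.7 ± 1.03) and SUIT2 (11.1 ± 1.64) and CTBP2 in COLO357 (16.2 ± 3.13). CD44 led the target genes in PANC1 (187 ± 54.0) and SUIT2 (155 ± 30.3) and CCND1 in COLO357 (269 ± 74.9).

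PYGO2 (ENSG00000163348), a nuclear cofactor that links beta-catenin to chromatin through BCL9 proteins, was the gene called against control with both targets. It stood at 10.6 CPM with control siRNA in PANC1, 27.7 and 24.4 CPM with KMT2D siRNA, and 20.5, 34.0 and 27.0 CPM with KMT2C siRNA. In COLO357 the control was at 12.1 CPM, the KMT2D libraries at 23.9 and 20.9 CPM and the KMT2C libraries at 23.8, 31.1 and 29.3 CPM. In SUIT2 the control was at 7.54 CPM, the KMT2D libraries at 22.0 and 11.0 CPM and the KMT2C libraries at 14.0, 23.7 and 21.6 CPM. Every siRNA library was above its control, which restates in part the calls for which PYGO2 is named. Of all genes tested, 13.4% lay on the same side of control in every KMT2D library and 6.99% in every KMT2C library. PYGO2 rose by a log2 difference of 1.10 with KMT2D siRNA (SE 0.226, adjusted p = 0.015) and of 1.32 with KMT2C siRNA (SE 0.220, adjusted p = 0.00503), values that share the 3 controls. The KMT2D call was lost with the siRNA as a block (adjusted p = 0.0832) and when the control of PANC1 (0.122), of COLO357 (0.0518) or of SUIT2 (0.15) was left out. The KMT2C call was lost without the control of PANC1 (0.105) or of SUIT2 (0.121).

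LGR4 (ENSG00000205213), the R-spondin receptor that keeps RNF43 from removing Frizzled, was lower with KMT2C than with KMT2D siRNA, at a log2 difference of -0.85 (SE 0.175, adjusted p = 0.00951). In PANC1 it was at 141 CPM with control siRNA, 120 and 274 CPM with the KMT2D siRNAs, and 87.7, 86.6 and 95.4 CPM with the KMT2C siRNAs. In COLO357 the control was at 432 CPM, the KMT2D libraries at 403 and 599 CPM and the KMT2C libraries at 357, 385 and 289 CPM. In SUIT2 the control was at 331 CPM, the KMT2D libraries at 465 and 772 CPM and the KMT2C libraries at 235, 413 and 366 CPM. No KMT2C library reached a KMT2D library of its line, while against control neither target was called. Such separation in the same direction in all 3 lines was found in 2.99% of all genes tested. The call kept its side when each library was left out in turn, and with the siRNA as a block it had an adjusted p = 0.0504.

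The other 3 calls between the targets were WNT7B, a ligand, higher with KMT2C siRNA by 0.80 (SE 0.217, adjusted p = 0.0364), BCL9L, a beta-catenin cofactor, higher by 0.90 (SE 0.259, adjusted p = 0.0493), and the ligand WNT11, lower, at a log2 difference of -1.06 (SE 0.291, adjusted p = 0.0372). None of the 3 was called with the siRNA as a block (adjusted p = 0.133, 0.0756 and 0.122) or without the 3 libraries with over 20% of read pairs in no feature (0.171, 0.132 and 0.0807). WNT7B was also lost in 10 of the leave-outs of 1 library, BCL9L in 14 and WNT11 in 8 of 18, with adjusted p up to 0.0836, 0.101 and 0.18. WNT11 came to 5.0 to 17.5 CPM in COLO357 and did not pass 0.0666 CPM in SUIT2.

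**Figure D5:**
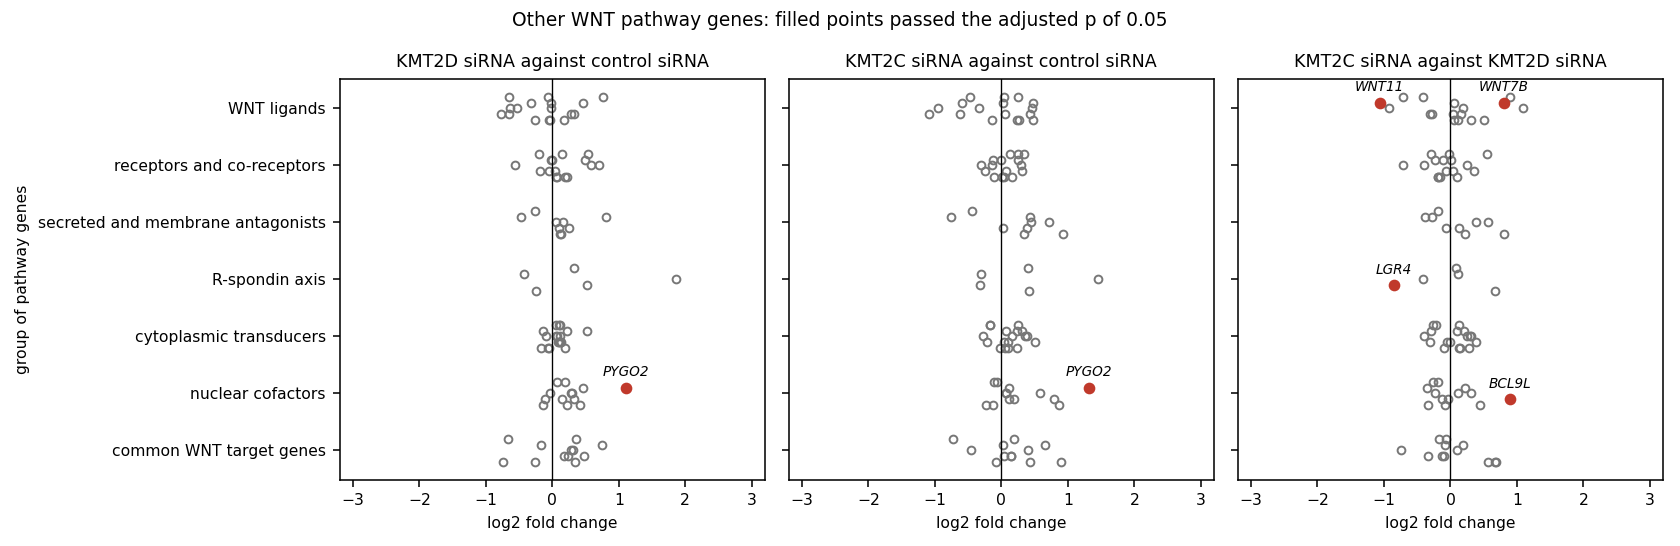
Log2 fold change (x axis) of 90 WNT pathway genes, by group of the list (y axis), in 3 panels for KMT2D against control, KMT2C against control and KMT2C against KMT2D siRNA, with filled points for genes at an adjusted p under 0.05. PYGO2 is the filled point in the first and second panels, and WNT7B, BCL9L, LGR4 and WNT11 are filled in the third.

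Across the 18 libraries, after the mean of each line was taken off log2 CPM, the genes most like TCF7 by Pearson correlation were RGL3 (r = 0.941), PKN3 (0.916) and FOXM1 (0.907). Those most like AMER1 were NCAPH (0.934), HOXB-AS4 (0.921) and LIG3 (0.917). These were the highest of all tested genes with a matched symbol and a mean of at least 2 CPM. TCF7 and AMER1 themselves had r = 0.68, AMER1 and CTNNB1 -0.803, TCF7 and CTNNB1 -0.697 and TCF7 and TCF7L2 0.651. The values describe 18 libraries that share lines, siRNAs and controls, and carry no test.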

How the data were processed

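RNA was sequenced from 18 libraries of the cell lines PANC1, COLO357 and SUIT2. The authors deposited, for each library, the raw count of read pairs at every Ensembl gene identifier, not normalized. The hg19 build and the tools FastQC, TopHat2, HTSeq and edgeR are named in the submitters' processing notes, without versions. No annotation release, overlap mode or strand setting is stated, although the kit marks strand, per the labels' protocols. Read pairs set aside as ambiguous were 4.77% to 7.14% of a library, so the counts of overlapping and antisense genes are uncertain. Samples were randomised into pools on several lanes, but the pool of a library is not stated and entered no fit. Entries that name no gene held 33.0% to 53.4% of read pairs and were left out of library sizes and tests.

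Symbols and exon lengths were taken by identifier from GENCODE v29, which is on GRCh38 and not the authors' build, so no gene coordinates are given beside RefSeq's promoters. A symbol was matched for 40044 of 63677 identifiers. All 18 libraries entered 1 fit with line and siRNA target as additive terms in edgeR 4.0.16 (R 4.3.3), by the quasi-likelihood F test with TMM factors, robust dispersions and Benjamini-Hochberg adjustment over 21028 genes kept by a filter (minimum count 10, minimum total count 15), with calls at an adjusted p under 0.05. The fit had 13 residual degrees of freedom and a common biological coefficient of variation of 0.239. A fit with 9 groups of line by target tested whether an effect differed between lines. Standard errors are the log2 difference over the square root of F, and intervals are at 95%. The test was run on simulated counts drawn independently for each library. That run does not cover a correlation between libraries with the same siRNA. Alternatives were relative log expression factors, DESeq2 1.42.0, no filter, limma-voom (limma 3.58.1) with the siRNA as a random block, each library left out in turn, the 3 libraries with over 20% of read pairs in no feature left out, and, for line differences, the control libraries only.

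The replicate number marks the siRNA, so the same number in 2 lines is the same reagent, and control libraries have no partner. Deviations of same-numbered libraries from their group means correlated at 0.283 to 0.379 for KMT2D and at 0.0564 to 0.294 for KMT2C, and the within-siRNA correlation of the block was 0.211.

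The 10 genes, the pathway and marker lists and the tests were chosen with earlier results of these data known. Named beside the 10 genes are pathway genes called in an siRNA comparison, at most 4 for each by smallest p, the most abundant gene per kb of each pathway group, and the 3 genes most like TCF7 and AMER1.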

Additional observations from a re-analysis of the deposited data

Results flagged for a closer look

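In groups of 6 or 9 libraries, 50 groups of values of the 10 genes were tested for a library far from the rest, and 3 were marked, where chance marks about 1 in 20. AXIN1 stood at a log2 ratio to control of -0.153 in SUIT2 KMT2D siRNA1, against 0.314 in the nearest of the other 5 KMT2D libraries. AXIN1 was at 67.6 CPM in SUIT2 KMT2D siRNA2, against 44.8 CPM in the next SUIT2 library. AXIN2 was at 3.66 CPM in the library labelled PANC1 KMT2C siRNA2, against 2.0 CPM in the next PANC1 library.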

How the results depend on the processing

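The count of genes called with KMT2D siRNA (253) was 661 by DESeq2, 657 without a filter and 77 with the replicate block, and 36 to 320 when each library was left out in turn. With KMT2C siRNA (59) it was 210, 270 and 26, 37 without the 3 libraries with over 20% of read pairs in no feature, and 7 to 74. Between KMT2C and KMT2D siRNA (1087) it was 1927, 1762, 288 and 342, and 672 to 1225. For the difference between lines it was 4 by DESeq2 and 23 without a filter for KMT2D, and 3, 46 and 1 with the block for KMT2C, with 0 to 1 for each when 1 library was left out. The counts between lines stayed within 1.5 times.

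Signs turned in these log2 differences, none of them called in the fit of all 18 libraries. The values with control libraries only set 1 library against 1 other and carry no test. Without the 3 libraries CTNNB1 was at 0.058 with KMT2C siRNA, and between KMT2C and KMT2D siRNA TCF7L1 was at -0.21 and APC at -0.0084. APC there was also at -0.0075 by relative log expression and by DESeq2 and at -0.030 without a filter, and RNF43 at 0.092 with the block. With control libraries only, LEF1 was at -0.63 and AXIN1 at -0.23 between COLO357 and PANC1, AMER1 at 0.16 and CTNNB1 at -0.18 between SUIT2 and PANC1, and TCF7L1 at -0.017 and AXIN2 at -1.09 between SUIT2 and COLO357. CTNNB1 was at -0.0015 without a filter between SUIT2 and PANC1, and AXIN2 at -0.042 without the 3 libraries between SUIT2 and COLO357. The causes were not tested.

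With 1 library left out, signs turned within these ranges. With KMT2D siRNA they were -0.47 to 0.077 for LEF1, -0.21 to 0.76 for AXIN2, -0.058 to 0.16 for APC and -0.17 to 0.095 for RNF43. With KMT2C siRNA they were -0.069 to 0.69 for TCF7, -0.056 to 0.25 for AXIN1, -0.0014 to 0.96 for AXIN2 and -0.058 to 0.16 for APC. Between KMT2C and KMT2D siRNA they were -0.042 to 0.42 for TCF7L1, -0.049 to 0.043 for APC and -0.17 to 0.093 for RNF43. Between lines they were -0.071 to 0.53 for LEF1 (COLO357 and PANC1), -0.050 to 0.069 for CTNNB1 (SUIT2 and PANC1) and -0.0032 to 0.40 for AXIN2 (SUIT2 and COLO357). The replicate block changed no call of the 8 tested genes with siRNA or of the 10 between lines. Precision is limited by 1 control library a line and by low counts of TCF7L1, LEF1 and AXIN2.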
